A study of Mus musculus with 132 samples.

Results

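The Dlk1-Meg3 locus of mouse chromosome 12 holds the gene of the microRNA (miRNA) miR-381, and its transcripts were followed here in single cells of preimplantation embryos. Members were the rows of the deposited count table named Dlk1, Meg3, Rtl1, Rian and Mirg. All 5 had a row, of 32245 in the table. Together they held 4354 counts over 132 cells, and 57 of the cells had a count of at least 1 member.

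Embryos came from crosses of C57BL/6 x DBA F1 (C57BL/6NCrl x DBA/2NHsd) females with F1 males of the same kind and were put in culture at the 2-cell stage. Treated embryos received a synthetic mimic of miR-381-3p in the medium, at 10 µM in embryos collected at the 8-cell stage and 5 µM in those collected at the 32-cell stage. Control embryos received a scrambled mimic in the same way and at the same concentrations. Collection at embryonic day 2.5 gave 30 control and 24 mimic cells of 8-cell embryos, and collection at embryonic day 3.5 gave 39 control and 39 mimic cells of 32-cell embryos. Each cell was sequenced with Smart-seq2, which reads polyadenylated RNA along its length, so that the mimic and mature miRNAs were not measured. The labels do not give the embryo of a cell, and 3 to 5 embryos per group were collected. Each group was therefore treated as 1 sample, with no test between groups and no p-value.

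The locus is imprinted. Dlk1, which encodes a Notch-like transmembrane protein, and Rtl1, which encodes a protein derived from a retrotransposon and is needed in the placenta, are known to be expressed from the paternal chromosome. Meg3, Rian and Mirg are long non-coding RNAs known to be expressed from the maternal chromosome, in the same direction, and to be the source of the small nucleolar RNAs and miRNAs of the region. The counts were made per gene and hold no information on the parental allele.

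The members lie in a row on chromosome 12 of mm10. By GENCODE M21, Dlk1 covers chr12:109452823-109463336 on the plus strand, Meg3 chr12:109541001-109571726 on the plus strand, Rtl1 chr12:109589193-109600330 on the minus strand, Rian chr12:109603940-109661716 on the plus strand and Mirg chr12:109729764-109749460 on the plus strand. Between the start of Dlk1 and the end of Dio3, RefSeq (GRCm38.p6) places 58 miRNA hairpins. Of these, 1 lies within Meg3, 6 lie within Rtl1 on the opposite strand, 3 within Rian and 14 within Mirg. A further 23 lie in the gap between Mirg and the next annotated row upstream, B830012L14Rik, and the hairpin of miR-381 (chr12:109726822-109726896) is one of them. It ends 2867 bases before the GENCODE start of Mirg and begins 185.8 kb after that of Meg3. The RefSeq promoter of Mirg (chr12:109734731-109735030) lies further downstream, so this distance and the number of hairpins within Mirg depend on the annotation. No member's annotated span therefore holds miR-381 itself, and Mirg is the nearest member.

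**Figure D1:**
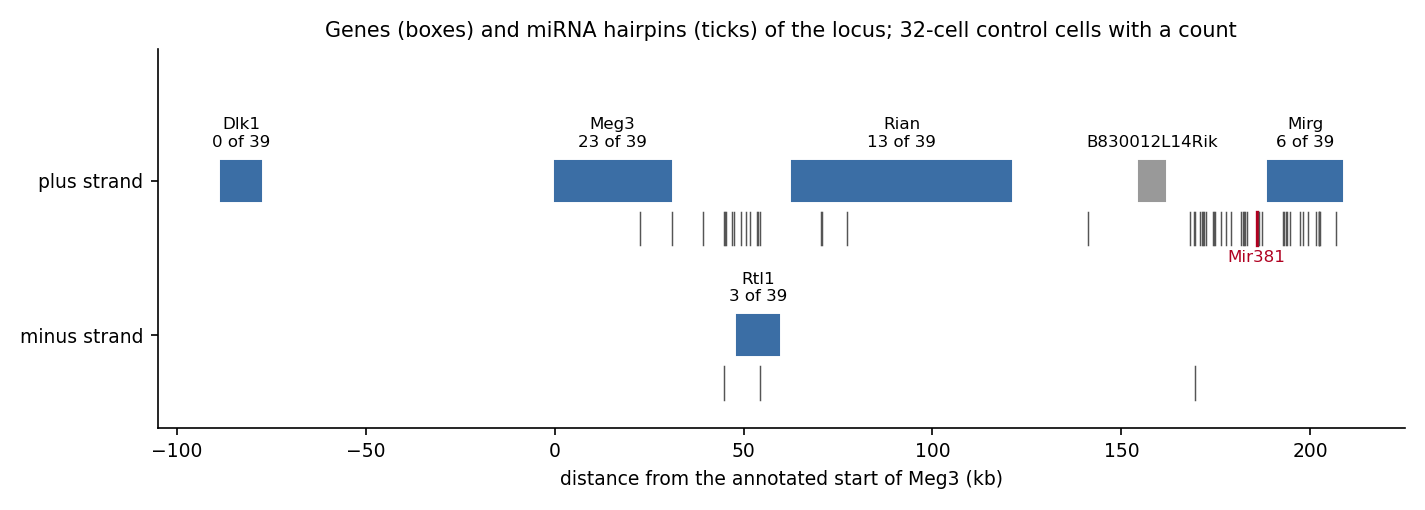
Boxes are the members (blue) and B830012L14Rik (grey), ticks below them are miRNA hairpins on the same strand (Mir381 in red), and the horizontal axis is the distance from the annotated start of Meg3 in kb. The number at each member is the count of 32-cell control cells with a count, which is 23 of 39 for Meg3, 13 for Rian, 6 for Mirg, 3 for Rtl1 and 0 for Dlk1.

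The miRNA that the mimic copies is shown first, followed by a close copy of it in the locus and by 1 miRNA from within each of Meg3, the strand opposite Rtl1, Rian and Mirg. Sequences are those of RefSeq (GRCm38.p6), written from the 5′ end, and capitals mark the seed (bases 2 to 8), the stretch that pairs with a target.
miR-381-3p: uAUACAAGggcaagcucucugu
miR-300-3p: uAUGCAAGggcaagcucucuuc
miR-770-5p, in Meg3: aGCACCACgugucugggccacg
miR-127-3p, opposite Rtl1: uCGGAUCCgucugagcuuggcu
miR-370-3p, in Rian: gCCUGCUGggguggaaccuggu
miR-410-3p, in Mirg: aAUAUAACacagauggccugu

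All 6 printed seeds are different. miR-381-3p and miR-300-3p carry the same base at 19 of 22 positions and differ by A4G, G21U and U22C (miR-381-3p first, positions counted from its 5′ end), of which A4G lies in the seed. In the locus as a whole, 9 seeds were shared, each by 2 mature miRNAs, and all others occurred once. Among all mature mouse miRNAs of the RefSeq table, the seed of miR-381-3p occurred in 1, miR-381-3p itself.

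The members' own transcripts were searched for the 7 bases that pair with this seed (CTTGTAT), in the longest GENCODE M21 transcript of each. Meg3 and Mirg each held 1 such stretch, and Dlk1, Rtl1 and Rian held 0. They are shown with 9 bases on each side and the paired stretch in capitals, since these transcripts were measured in mimic-treated cells.
Meg3, bases 1946 to 1952 of 14548: gatttgctcCTTGTATgtctagggt
Mirg, bases 3654 to 3660 of 3822: ccccagagcCTTGTATtccagatct

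Neither stretch is followed by the A that makes an 8-base site. Over the longest transcripts of 31411 genes of the table, 13.3% held the 7 bases at least once, at a mean of 0.0575 per kb. A match of this length is a description of the letters and not a target site.

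Meg3 was the member with the most counts, and its promoter is printed because it lies at the upstream end of the non-coding RNAs, most of which were found in cells that also held Meg3. RefSeq gives Meg3 a pair of starts. The 300 bases around the first (chr12:109540746-109541045, plus strand, GRCm38.p6) are written with the cyclic AMP response element TGACGTCA and the TATA box TATAAA, searched on both strands, in capitals.
Meg3 promoter: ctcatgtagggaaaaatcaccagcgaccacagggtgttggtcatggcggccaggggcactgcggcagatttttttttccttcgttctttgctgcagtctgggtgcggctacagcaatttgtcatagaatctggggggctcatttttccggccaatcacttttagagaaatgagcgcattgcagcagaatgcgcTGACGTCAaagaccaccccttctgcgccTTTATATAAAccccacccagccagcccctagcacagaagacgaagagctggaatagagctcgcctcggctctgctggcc

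The response element begins 57 bases before the start and the first TATA match, which overlaps the second on the other strand, 29 bases before it. Of 32851 promoters of the same length in the table, 1.79% held TGACGTCA and 13.6% held TATAAA. The second Meg3 promoter and those of Dlk1, Rian and Mirg held neither.

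Whole-library values bear on these results as follows. Total counts without mitochondrial genes ranged from 522178 to 3335366 per cell, and levels are given as counts per 1000000 of these counts (CPM). In a clustering that left out the genes of the locus, its flanks and regulators of imprints, all 54 cells of 8-cell embryos fell together and the 78 of 32-cell embryos split in 2 clusters. One held 35 cells with the highest level of 8 of 9 inner cell mass markers (ICM-like) and the other 43 cells with the highest level of all 9 trophectoderm markers (TE-like). ICM-like cells were 25 of 39 in control (64.1%, exact binomial 95% interval 47.2 to 78.8) and 10 of 39 in mimic embryos (25.6%, 95% interval 13.0 to 42.1). With clusters of all genes 14 mimic cells were ICM-like (35.9%) and with a marker score 17 (43.6%), while the control number was 25 each time. The authors stained whole blastocysts for the proteins Sox2 and Cdx2 and reported no shift of the lineage proportions with the mimic. That is a different measure from the classes of sequenced cells. Intervals of shares treat cells as independent, although cells of a group share embryos. Markers of cumulus cells, which can cling to an embryo, summed to at most 0.844 CPM in any group or class. At the 32-cell stage all 39 control cells had more Y-linked than Xist counts and all 39 mimic cells more Xist, so treatment cannot be told apart from this difference, nor from the runs of cell numbers in the titles, each of which holds 1 treatment. Stage cannot be told apart from the title suffix that goes with it nor from the dose, since the scrambled mimic was given at the same concentrations.

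The paternally expressed protein genes had few or no counts. Dlk1 had 0 counts in all 132 cells. At the pooled depth of each group, 3 counts would be 0.0817 CPM in 8-cell control, 0.0971 CPM in 8-cell mimic, 0.0527 CPM in 32-cell control and 0.0564 CPM in 32-cell mimic cells, and a count of 0 in 30, 24, 39 and 39 cells allows shares of cells with a count of up to 10.0%, 12.5%, 7.69% and 7.69%. Dlk1 was thus not detectable at this depth in any group.

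Rtl1 had 40 counts, all in 3 cells, and these 3 were ICM-like 32-cell control cells. The cells held 32, 6 and 2 counts, or 28.2, 7.10 and 0.726 CPM. Pooled over 32-cell control cells Rtl1 was at 0.703 CPM (exact Poisson 95% interval 0.502 to 0.957), and without the cell that held 32 counts at 0.144 CPM. It had 0 counts in 32-cell mimic cells, which is at least 12.5-fold lower against the 3 counts that a count of 0 allows over the group. That bound rests on the 1 cell with 32 counts and covers counting error only. For 0 of 39 cells the exact binomial 95% interval of the share reaches 9.025%, above the 7.69% of control cells with Rtl1. All 3 cells came from the earlier run of 24 control cells (titles numbered 63 to 86), and the later run of 15 had 0 counts. Smart-seq2 does not mark the strand of a read. Since 6 miRNA hairpins lie opposite Rtl1 and transcription is known to run through it from the Meg3 side, sense and antisense reads cannot be told apart, and each of the 3 cells also had Meg3 counts.

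Meg3, the non-coding RNA at the upstream end of the maternally expressed stretch, was detected in every group, in 44 of 132 cells. In 8-cell control embryos 5 of 30 cells had counts (16.7%, 95% interval 5.64 to 34.7), at 22.02, 15.95, 8.74, 6.99 and 3.77 CPM. In 8-cell mimic embryos 3 of 24 cells had counts (12.5%, 95% interval 2.66 to 32.4), at 17.9, 15.4 and 3.10 CPM. The other cells of both groups were at 0, and the ranges of the cells with counts overlapped.

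In 32-cell control embryos 23 of 39 cells had Meg3 counts (59.0%, 95% interval 42.1 to 74.4), from 1.10 to 166.4 CPM with a median of 49.7 CPM among those 23. In 32-cell mimic embryos 13 of 39 cells had counts (33.3%, 95% interval 19.1 to 50.2), from 1.99 to 226.1 CPM with a median of 16.4 CPM among those 13. The highest cell of all was a mimic cell. More than 1 in 2 control cells and fewer than 1 in 2 mimic cells had a count, and apart from the highest one the mimic cells reached 52.95 CPM, within the control range.

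Counts of Meg3 pooled over 8-cell control cells came to 2.21 CPM (1.75 to 2.74 by the exact Poisson 95% interval), and over 8-cell mimic cells to 1.52 CPM (1.12 to 2.02). The pooled level was 30.3 CPM (28.9 to 31.8) for 32-cell control and 15.0 CPM (13.95 to 16.1) for 32-cell mimic cells. The order of the 4 groups was therefore 32-cell control, 32-cell mimic, 8-cell control and 8-cell mimic, with overlapping counting intervals for the last pair only. Reads of this protocol carry no molecular identifiers, so intervals cover counting error only and neither the spread between cells nor that between embryos. The level of 32-cell mimic cells rested on 1 ICM-like cell, which held 496 of the 797 counts (62.2%). Without it the group was at 5.90 CPM. The 8-cell levels also rested on few cells, and without the cell with the most counts they were 1.23 CPM for control and 0.582 CPM for mimic cells.

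Rian, which lies next downstream and is the host of a large set of small nucleolar RNAs, was detected in 30 of 132 cells. In 8-cell control embryos 4 of 30 cells had counts (13.3%, 95% interval 3.76 to 30.7), at 20.95, 1.66, 1.32 and 0.968 CPM, of which all but the highest held 1 or 2 counts. In 8-cell mimic embryos 4 of 24 cells had counts (16.7%, 95% interval 4.74 to 37.4), at 17.5, 15.4, 8.27 and 2.498 CPM. Apart from 1 control cell, the mimic cells with counts were the higher ones.

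At the 32-cell stage Rian was found in 13 of 39 control cells (33.3%, 95% interval 19.1 to 50.2), from 1.04 to 262.5 CPM with a median of 21.04 CPM among those 13. In mimic embryos 9 of 39 cells had counts (23.1%, 95% interval 11.1 to 39.3), from 1.20 to 91.6 CPM with a median of 18.04 CPM among those 9. The medians of cells with counts lay close together, while 4 control cells, at 130.9 to 262.5 CPM, were above every mimic cell. Pooled levels of Rian were 0.517 CPM (0.311 to 0.808, exact Poisson 95% interval) for 8-cell control, 2.17 CPM (1.68 to 2.75) for 8-cell mimic, 19.8 CPM (18.6 to 20.95) for 32-cell control and 7.34 CPM (6.63 to 8.11) for 32-cell mimic cells. No counting intervals of neighbours in this order overlapped, but 15 of the 19 counts of 8-cell control and 201 of the 391 counts of 32-cell mimic cells were in 1 cell each. Without those cells the pooled levels were 0.111 and 3.72 CPM.

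Mirg, the member nearest to miR-381 and the host of 14 of the hairpins, was the rarest of the 3 non-coding RNAs. It had 0 counts at the 8-cell stage in either treatment. In 32-cell control embryos 6 of 39 cells had counts (15.4%, 95% interval 5.86 to 30.5), at 11.7, 11.1, 10.3, 6.21, 5.92 and 0.998 CPM. In 32-cell mimic embryos 2 of 39 cells had counts (5.13%, 95% interval 0.627 to 17.3), at 3.10 and 1.37 CPM. Pooled Mirg came to 0.949 CPM (0.713 to 1.24) for control and 0.150 CPM (0.0649 to 0.296) for mimic cells, a ratio of mimic over control of 0.158 (exact counting interval 0.0651 to 0.335). Both mimic cells lay below 5 of the 6 control cells. The mimic level rested on these 2 cells, with 5 and 3 counts, and without the first it was 0.0581 CPM and the ratio 0.0612. The runs of titles gave 1.75 and 0.411 CPM in control and 0, 0.291 and 0.189 CPM in mimic embryos.

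Between genes, levels were compared per kb of annotated exon (18.1 kb for Meg3, 18.2 kb for Rian, 7.29 kb for Mirg, 6.36 kb for Rtl1 and 5.66 kb for Dlk1). In 32-cell control cells Meg3 was at 1.68, Rian at 1.08, Mirg at 0.1302 and Rtl1 at 0.111 pooled CPM per kb. Levels of the 3 non-coding RNAs, and the numbers of cells that held them, thus declined in their order along the chromosome. The order of Meg3, Rian and Mirg was the same in 32-cell mimic cells, at 0.828, 0.403 and 0.0206 CPM per kb. In 8-cell mimic cells Rian, at 0.119, was above Meg3, at 0.0841 CPM per kb.

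**Figure D2:**
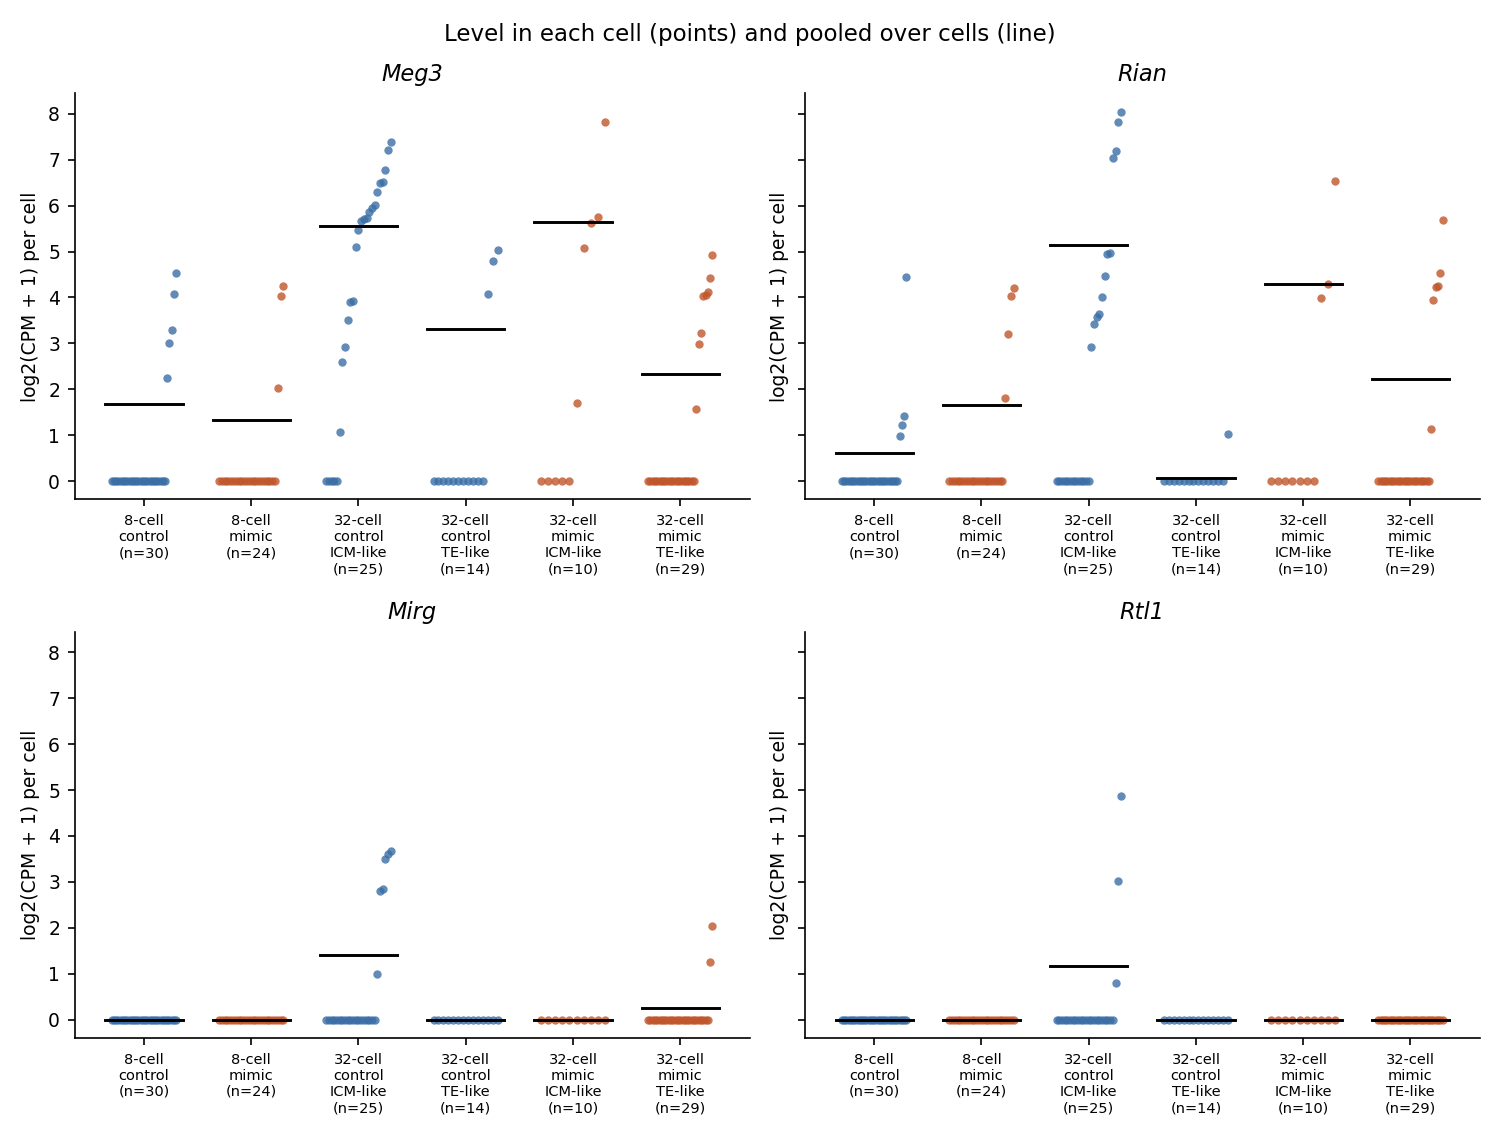
Each point is 1 cell, with log2(CPM + 1) of Meg3, Rian, Mirg or Rtl1 on the vertical axis and the stage, treatment and class on the horizontal axis (control blue, mimic orange, sorted by level within a column). The black line is the level pooled over the cells of the column, at 46.4 CPM for Meg3 and 34.5 CPM for Rian in ICM-like control cells, the only class with Rtl1.

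The comparison of stages asks how the locus changes as the first lineages form. Changes between pooled levels are given on the log2(CPM + 1) scale, and a change of 1 or more in size at 5 CPM or more in either group is used as a fixed measure of size, not as a test. In control embryos Meg3 was higher at the 32-cell than at the 8-cell stage by 3.29 on the log2 scale (counting interval 3.06 to 3.52), and Rian by 3.77 (counting interval 3.51 to 3.99). These were the 2 members at 5 CPM or more, and both passed that size, as did 53.6% of the 10348 genes at that level, so passing it does not set the members apart. Mirg, which was at 0 counts in 8-cell control cells, was at least 11.6-fold higher and Rtl1 at least 8.61-fold higher. The bound for Rtl1 rests on the 1 cell with 32 counts, without which 32-cell control cells were at 0.144 CPM, against the 0.0817 CPM that 3 counts would be in 8-cell control cells.

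In mimic embryos Meg3 was higher at the 32-cell stage by 2.66 (counting interval 2.39 to 2.93) and Rian by 1.4 (counting interval 1.12 to 1.67), both past a log2 change of 1, as were 52.0% of 10518 genes. The doses of the stages differed in both treatments, so stage and dose cannot be told apart in mimic or in control embryos. Without the 1 mimic cell with the most counts these changes were 1.45 for Meg3 and 0.58 for Rian, which is then below that size. Of the counts of Meg3 and Rian over all cells, 95.2% and 94.6% were in 32-cell cells, and for Mirg and Rtl1 all were. All 5 8-cell control cells with Meg3 were among the 23 in which Xist was above the Y-linked transcripts. Among the 7 8-cell control cells of the other type Meg3 had 0 counts, and among the 8 8-cell mimic cells of that type 1 had Meg3, with 3 counts. Whether the 2 types differ in Meg3 was not tested, since cells of 1 type may share an embryo.

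Within the 32-cell stage the transcripts were concentrated in 1 class of control cells. Of the 25 ICM-like control cells, 20 had Meg3 (80%, 95% interval 59.3 to 93.2), against 3 of 14 TE-like control cells (21.4%, 95% interval 4.66 to 50.8). Pooled Meg3 came to 46.4 CPM (44.1 to 48.8) for ICM-like and 8.88 CPM (7.73 to 10.1) for TE-like control cells, a log2 change of 2.26 (counting interval 2.07 to 2.45). The 3 TE-like cells, at 31.9, 26.7 and 15.8 CPM, lay below the median of the 20 ICM-like cells with counts, 51.7 CPM. Their libraries were deep, with a median total of 3075348 counts against 1297666 in the TE-like control cells without Meg3, and all 3 kept Meg3 counts when every cell was thinned to 500000 counts.

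For Rian the ratio between the classes of control cells was larger. It had counts in 12 of 25 ICM-like cells (48.0%, 95% interval 27.8 to 68.7), from 6.61 to 262.5 CPM, and a single count in 1 of 14 TE-like cells. Pooled Rian was at 34.5 CPM (95% interval 32.5 to 36.6) against 0.0411 CPM (95% interval 0.00104 to 0.229), a ratio of 839.5 with a counting interval of 150.4 to 33186. The 6 control cells with Mirg and the 3 with Rtl1 were all ICM-like. Both Meg3 and Rian passed a log2 change of 1 between the classes, as did 29.9% of 9882 genes. Of the control counts, 87.5% of Meg3 and 99.9% of Rian were in ICM-like cells, and the TE-like cells were the deeper ones, with a median of 1705576 counts against 1108732.

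In mimic embryos 79.5% of the Meg3 and 61.9% of the Rian counts were in ICM-like cells, which held 24.4% of the total counts. Without the mimic cell with the most counts these shares were 45.8% and 21.6%. Meg3 had counts in 5 of 10 ICM-like (50.0%, 95% interval 18.7 to 81.3) and 8 of 29 TE-like cells (27.6%, 95% interval 12.7 to 47.2), and Rian in 3 of 10 (30%, 95% interval 6.67 to 65.3) and 6 of 29 (20.7%, 95% interval 7.99 to 39.7). The 2 mimic cells with Mirg were TE-like. Pooled Meg3 came to 48.9 CPM (45.1 to 52.8) for ICM-like and 4.05 CPM (3.45 to 4.72) for TE-like mimic cells, a log2 change of 3.30 (counting interval 3.09 to 3.52). The ICM-like value fell to 12.8 CPM without the cell with the most counts, and the log2 change to 1.45. Rian was at 18.7 CPM in ICM-like and 3.70 CPM in TE-like mimic cells, and at 3.80 CPM in ICM-like cells without the same cell. Both genes passed a log2 change of 1 between the classes with that cell, as did 26.8% of 10236 genes.

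**Figure D3:**
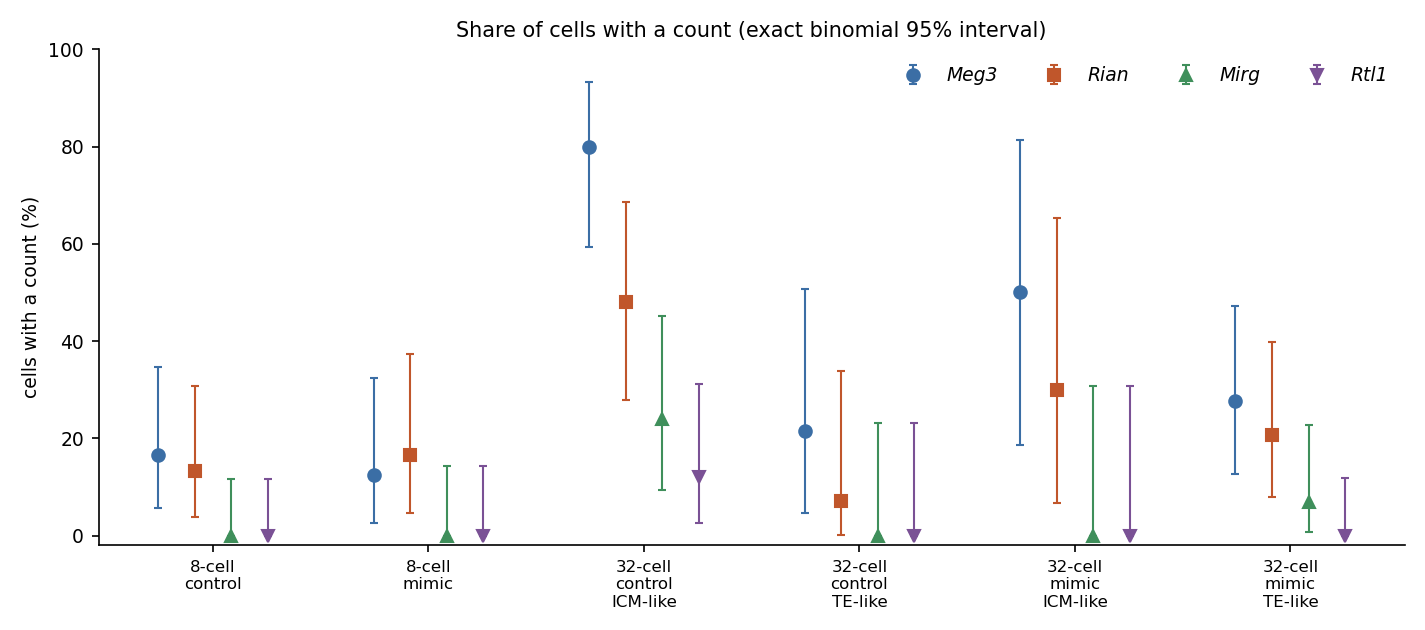
The share of cells with a count, in percent, is given for Meg3, Rian, Mirg and Rtl1 in each stage, treatment and class, with exact binomial 95% intervals as bars. For Meg3 it runs from 12.5% in 8-cell mimic to 80% in ICM-like control cells, and in mimic embryos it is 50.0% in ICM-like (n = 10) and 27.6% in TE-like cells (n = 29).

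The comparison of treatments asks whether the transcripts of the locus differ in embryos that received a mimic of its miRNA. At the 8-cell stage Meg3 was lower in mimic cells by 0.35 on the log2 scale (counting interval -0.68 to -0.00, mimic less control), and neither gene reached 5 CPM. Rian was higher by 1.06 (counting interval 0.71 to 1.36), with 67 counts in mimic and 19 in control cells. It was 0.59 without the mimic cell and 1.51 without the control cell with the most counts, and 0.62 with the mean of the cells' CPM. Over all genes at 5 CPM or more, 21.8% of 9693 passed a log2 change of 1 between these groups, and 0 members were among them. Leaving out 1 cell turned the direction for Meg3. Without the control cell with the most counts its change was 0.18, and in the 7 control and 8 mimic cells of that stage in which Y-linked transcripts outnumbered Xist it was 0.45.

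At the 32-cell stage Meg3 was lower in mimic than in control cells by 0.97 on the log2 scale (counting interval -1.09 to -0.86, mimic less control) and Rian by 1.31 (counting interval -1.47 to -1.16). With pooled counts and a pseudocount of 1 CPM, Rian passed a log2 change of 1 in size, as did 18.9% of 10050 genes, and Meg3 fell just short of it. Which of the genes passed changed with the cells left out, since the change of Meg3 was -2.18 without the mimic cell and -0.83 without the control cell with the most counts, and that of Rian -2.14 and -0.93. Meg3 also passed with the mean of the cells' CPM (-1.28), thinned counts (-1.25), TMM factors (-1.07), a pseudocount of 0.1 CPM (-1.01) and cells with 1000000 or more counts (-1.01), and without the later control run of titles (-1.25). Without the earlier control run Meg3 did not pass (-0.42). Leaving out the mimic runs, in the order of their numbers, gave -0.69, -0.52 and -2.10, of which only the last passed. Rian did not pass (-0.86) without 1 of the mimic runs of title numbers. Mirg had 54 counts in control and 8 in mimic cells. This comparison holds fewer ICM-like cells on the mimic side, where they gave 24.4% of the counts against 57.2% in control. With the mimic levels of each class taken at the control shares, an alternative added after seeing the data, Meg3 would be at 29.7 CPM (log2 change -0.03) and Rian at 12.3 CPM (-0.65). Without the mimic cell with the most counts these values were 9.06 CPM (-1.64) and 3.76 CPM (-2.12), so they rest on that cell.

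Within ICM-like cells Meg3 was at about the same pooled level in the treatments, 48.9 CPM in mimic and 46.4 CPM in control cells (log2 change 0.07, counting interval -0.06 to 0.21). That closeness rested on that 1 mimic cell, without which the mimic cells were at 12.8 CPM. Rian was lower in mimic ICM-like cells by 0.85 (counting interval -1.05 to -0.66). Neither passed a log2 change of 1 in size, which 30.7% of 10186 genes did. Without that cell both would pass, at -1.78 for Meg3, where the direction turns, and -2.89 for Rian. Rtl1 and Mirg had 0 counts in the 10 mimic ICM-like cells, where 3 counts would be 0.231 CPM, against 1.23 and 1.66 CPM in the 25 control cells, at least 5.31-fold and at least 7.17-fold lower. The bound for Rtl1 rests on 1 control cell, without which the control cells were at 0.255 CPM.

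Within TE-like cells the genes went different ways. Meg3 was at 4.05 CPM in mimic and 8.88 CPM in control cells (log2 change -0.97, counting interval -1.22 to -0.71), in 8 of 29 and 3 of 14 cells. This change was -1.47 without the mimic cell and -0.38 without the control cell with the most counts. Rian was at 3.70 CPM in 6 mimic cells against a single control count (log2 change 2.17, counting interval 1.90 to 2.24). Rian was below 5 CPM on both sides. Meg3, at 5 CPM or more in control cells, did not pass a log2 change of 1 in size, which 27.2% of 9975 genes did. The mimic TE-like cells with Rian held 1, 15, 15, 23, 44 and 51 counts. Apart from the cell with 1 count, they were at 14.4 to 50.6 CPM, within the range of ICM-like control cells. Of these 6 cells 3, with 15, 15 and 1 counts, were ICM-like by the clusters of all genes or by the marker score. By either of those definitions 4 TE-like mimic cells had Rian, at a pooled 3.71 and 4.32 CPM.

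**Figure D4:**
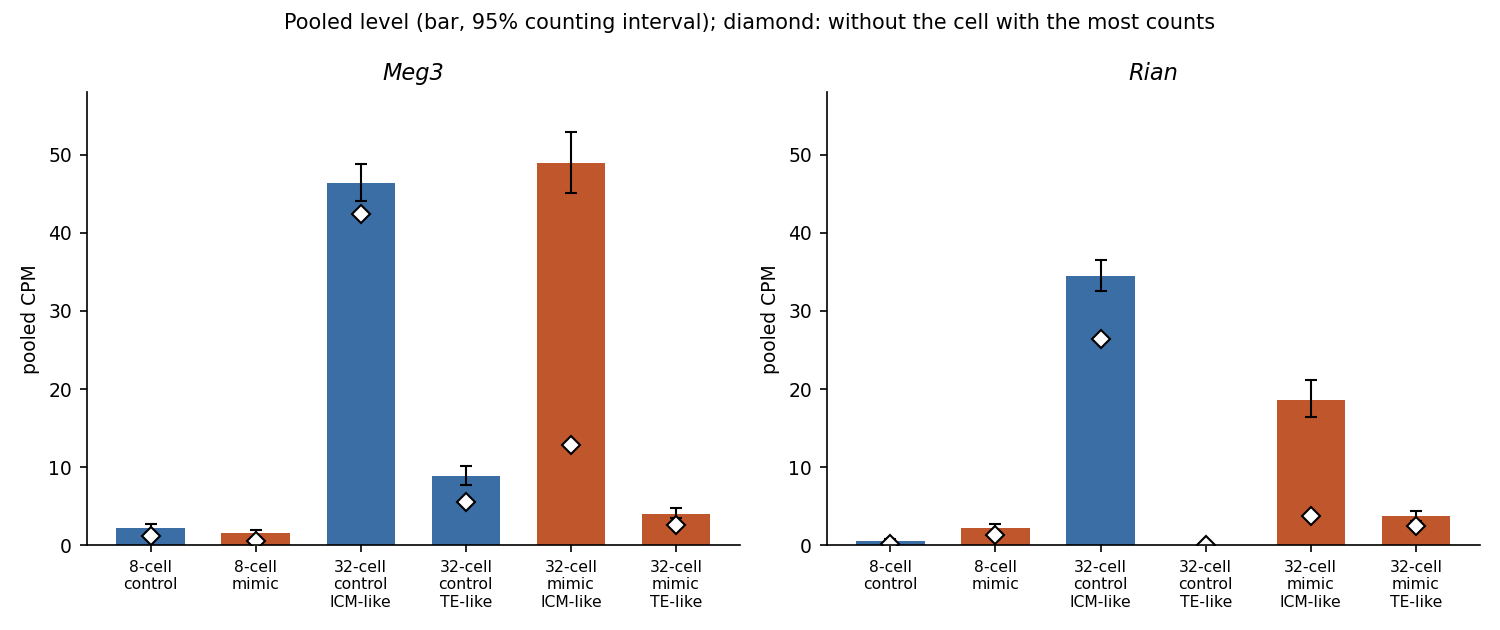
Bars are pooled CPM of Meg3 (left) and Rian (right) in each stage, treatment and class, error bars the exact Poisson 95% intervals, and diamonds the same value without the cell with the most counts. For Meg3 in mimic ICM-like cells the bar stands at 48.9 CPM and the diamond at 12.8 CPM, while in control ICM-like cells they stand at 46.4 and 42.5 CPM.

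The runs of consecutive numbers in the cell titles gave the spread within a treatment. Meg3 was at 37.05 CPM in the earlier run of 24 control cells (17 cells with counts) and 20.3 CPM in the later run of 15 (6 cells). In mimic embryos it was at 9.34 CPM in 18 cells (9 with counts), 2.74 CPM in 12 cells (2 with counts) and 35.4 CPM in 9 cells (2 with counts), the last being the run of the mimic cell with the most counts. Rian was at 20.5 and 18.7 CPM in the control runs and at 8.60, 0.874 and 12.8 CPM in the mimic runs. Pooled Meg3 in 1 mimic run thus lay between the control runs. In the mimic run at 12.8 CPM of Rian, 1 cell held 201 of the 202 counts. ICM-like cells were 70.8% and 53.3% of the control runs and 33.3%, 25% and 11.1% of the mimic runs. Pooled Meg3 and Rian were higher in the control run with the larger share. In that run Rian was found in 29.2% of cells against 40.0% in the later run, and Mirg was at 0.411 against 1.75 CPM. The mimic run with the lowest share had the highest pooled Meg3 and Rian and held the cell with the most counts. The part of class shares in the run values was not tested, and no run holds both treatments.

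Detection of the members in the same cell was then counted. Of 39 control cells of the 32-cell stage, 11 had both Meg3 and Rian, 12 Meg3 alone, 2 Rian alone and 14 neither. Thus Meg3 was found in 84.6% of the 13 cells with Rian and 46.2% of the 26 cells without it. In mimic cells 6 had both, 7 Meg3 alone, 3 Rian alone and 23 neither, or Meg3 in 66.7% of the 9 cells with Rian and 23.3% of the 30 without it. Control cells with Meg3 were not the deeper ones, with a median total of 1135401 counts against 1308988 in cells without it. With each cell thinned to 500000 counts the control numbers were 11, 12, 1 and 15 and those of mimic cells were the same as before.

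At the 8-cell stage the members were mostly found apart. In control embryos 1 cell had both Meg3 and Rian, 4 had Meg3 alone and 3 Rian alone, and in mimic embryos 1 had both, 2 Meg3 alone and 3 Rian alone. At the 32-cell stage all 11 control cells with both were ICM-like. Within the 25 ICM-like control cells, 11 of 12 cells with Rian also had Meg3, as did 9 of 13 without Rian. Among the 29 TE-like mimic cells, 5 of 6 with Rian had Meg3, against 3 of 23 without it. The other classes went the other way. Meg3 was in 1 of 3 ICM-like mimic cells with Rian and 4 of 7 without it. In TE-like control cells these numbers were 0 of 1 and 3 of 13.

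Levels in cells with both genes varied widely. In control cells with both, the median of Meg3 was 77.6 CPM, against 15.0 CPM in cells with Meg3 but no Rian. In mimic cells the medians were 15.5 and 29.4 CPM, in the other order. Rian counts exceeded Meg3 counts in 3 of the 11 control cells and 4 of the 6 mimic cells with both. Mirg was added to this pair in 4 control cells and Rtl1 in 2, and 6 cells in all held 3 members, all of them ICM-like control cells. No cell held 4.

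**Figure D5:**
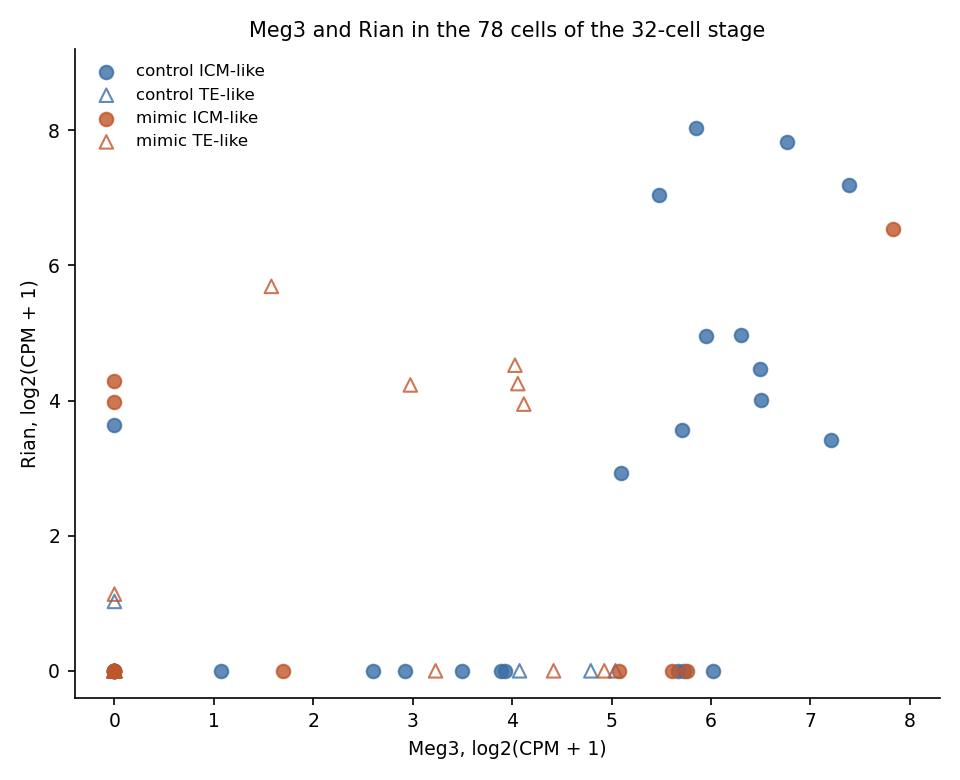
Each symbol is 1 of the 78 32-cell cells, with log2(CPM + 1) of Meg3 on the horizontal and of Rian on the vertical axis, circles for ICM-like, triangles for TE-like, blue for control and orange for mimic. The 11 control cells with both genes are all circles at 33.05 CPM of Meg3 or more, with Rian spread from 6.61 to 262.5 CPM. Of the 6 mimic cells with both, 5 are triangles at lower Meg3 levels.

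Across the 39 control cells of the 32-cell stage the Pearson correlation of log2(CPM + 1) between Meg3 and Rian was 0.63, and it was 0.60 over the 25 ICM-like cells and 0.42 over the 39 mimic cells. These are descriptions over cells that share embryos and many values of 0. Of 9127 genes with a count in 10 or more of the control cells, Rian ranked second in likeness to Meg3 and Meg3 first in likeness to Rian. Plekhm3 ranked first for Meg3 (r = 0.64), but its correlation was -0.24 in mimic cells. Prmt7, Ado and Ubfd1 followed, at 0.55, 0.54 and 0.54 in control and 0.19, -0.17 and -0.50 in mimic cells. For Rian, Gemin4, Naf1, Fads1 and Dhdh followed Meg3, at 0.55, 0.55, 0.54 and 0.54 in control and 0.05, 0.05, 0.17 and -0.11 in mimic cells. Since these genes were chosen by their control values, the lower mimic values are no comparison between treatments.

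Of the other rows between Dlk1 and Dio3 the one nearest upstream of miR-381 is described here although its values had been seen when it was chosen. B830012L14Rik (chr12:109695586-109702587, plus strand) had 273 counts in 4 cells. A single ICM-like control cell held 226 of them, at 110.8 CPM, together with 89 Meg3 and 267 Rian counts and 0 Mirg counts. A further 2 ICM-like control cells held 6 and 2 counts and both also had Meg3 and Mirg, and 1 8-cell mimic cell held 39 counts with 0 of any member. Over the whole interval 15 annotated genes matched a row, and 6 of them had 0 counts in every cell.

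Genes that flank the imprinted stretch on either side were compared in the same way. Of 11 flanking genes 6 were at 5 CPM or more. From 8-cell to 32-cell control, Ppp2r5c (a phosphatase subunit), Dync1h1 (the dynein heavy chain), Wars (a tRNA synthetase) and Hsp90aa1 (a chaperone) were higher by more than 1 on the log2 scale and Yy1 (a zinc finger factor) was lower, between stages at which 53.6% of all genes at that level passed this size. The median log2 change over the 6 was 1.22, against 0.20 over all genes at that level. Between mimic and control cells at the 32-cell stage 0 of the 6 passed a log2 change of 1, which 18.9% of all genes did, and the median was -0.04, against 0.04 over all genes at that level. Between the 8-cell groups Dync1h1 was lower in mimic cells (-1.01, and -0.89 without the control cell with the most counts). Wdr25 was higher in ICM-like than in TE-like control cells (11.1 against 3.21 CPM, log2 change 1.53, and 0.56 without 1 ICM-like cell), lower in ICM-like than in TE-like mimic cells (-1.35) and lower in mimic than in control ICM-like cells (1.93 against 11.1 CPM, -2.05). Its counts were in 2 cells each of both ICM-like groups. Yy1 was higher in ICM-like than in TE-like mimic cells (1.28, and 0.86 without 1 ICM-like cell). Each of these comparisons had 1 or 2 of the 6 past this size, against 21.8% to 30.7% of all genes, and within TE-like cells 0 passed, against 27.2% of all genes. Between the mimic stages the same 5 genes passed as between the control stages, in the same directions, against 52.0% of all genes. Dio3, the paternally expressed deiodinase gene at the far end of the imprinted domain, had 67 counts in 5 cells, 1 of them 8-cell control and 4 32-cell mimic. At the end beyond Dlk1, Begain had 28 counts in 1 cell. Both were below 5 CPM in every group and are named with their values known.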

How the data were processed

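Single cells were sequenced with Smart-seq2, which carries no molecular identifiers. The authors aligned reads to mm10 (annotation mm10-2020-A) with STAR, version 2.5.1b, and deposited the unnormalised expected counts that RSEM, version 1.3.0, estimated for 32245 genes in 132 cells. Every value in the table is whole. Cells held from 544866 to 3461022 counts per cell. The study's filter on cells, 3000 genes with a count and at most 10% mitochondrial counts, removed 0 cells, and counts of the 13 mitochondrial genes were left out of every total.

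Counts were summed over the cells of each group or class and divided by their total (CPM), with a pseudocount of 1 CPM in log2 changes. Intervals at the 95% level are exact Poisson for sums, exact conditional for ratios and Clopper-Pearson for shares, and the limit for a count of 0 is 3 counts. Reads are not independent molecules, so both cover counting error only. The labels name no embryo for a cell, and no test was made between groups.

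Cells were clustered with R (version 4.3.3) and Seurat (version 5.3.0) on odd-ranked genes in alphabetical order, with 2000 variable genes and 25 principal components, and the resolution was raised from 0.6 in steps of 0.2 until the 32-cell cells fell into 2 clusters. Doublets were not called. Clusters were named from 9 markers each of the inner cell mass (Fgf4, Fgfr1, Gata6, Gdf3, Klf2, Nanog, Pdgfra, Spic, Tdgf1) and the trophectoderm (Dab2, Elf3, Eomes, Fgfr2, Gata3, Id2, Krt18, Krt8, Tspan8). Other steps used Python (version 3.11.15) with pandas (version 2.3.3) and scipy (version 1.17.1). TMM factors came from edgeR (version 4.0.16). The computations were tested on simulated data.

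Genes named in the text are the 5 members, the genes of 2 lists (11 flanking genes and 19 regulators of imprints) past a log2 change of 1 in size at 5 CPM or more, with the others of these lists as counts, and the 5 genes most like Meg3 and Rian by Pearson correlation over 32-cell control cells among genes with a count in 10 or more of them. B830012L14Rik, Dio3 and Begain were added after their values had been seen. The members and lists were chosen with earlier results of these data known. Coordinates and exon lengths are from GENCODE M21, whose release may differ from the annotation used for counting, and sequences are from RefSeq or GENCODE M21 transcripts. Alternatives tried were the mean of the cells' CPM, thinning to 500000 counts, TMM factors, a pseudocount of 0.1 CPM, cells with 1000000 or more counts, each run of title numbers left out, 8-cell cells of 1 Xist or Y-linked type, classes from all genes or from a marker score, a minimum of 5 counts for detection, filters of 20 CPM or any count, and, chosen after seeing the data, leaving out the cell with the most counts.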

Additional observations from a re-analysis of the deposited data

How the results depend on the processing

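Values here are log2 changes, as first group less second. With mimic class levels at the control class shares (added after seeing the data), mimic less control at the 32-cell stage was -0.03 for Meg3 and -0.65 for Rian. The alternatives were run on 10 changes of Meg3 and Rian (not on Mirg, Rtl1, Rian between the classes or changes within a class, save the leaving out of 1 cell given beside them, which turned Meg3 within ICM-like cells). Of the 10, Meg3 between mimic and control cells of the 8-cell stage changed sign. It was -0.35 and became 0.45 in cells with Y-linked transcripts above Xist, 0.18 without the control cell with the most counts (added after seeing the data) and 1.33 without the main run of control title numbers, which left 2 control cells. With the mean of the cells' CPM, mimic less control at the 32-cell stage was -1.28 for Meg3 and -1.71 for Rian, Rian at the 8-cell stage was 0.62, and ICM-like less TE-like Meg3 was 2.88 (control) and 2.91 (mimic). With thinning to 500000 counts, mimic less control at the 32-cell stage was -1.25 for Meg3 and -1.5 for Rian, and ICM-like less TE-like Meg3 was 2.85 (control) and 2.96 (mimic). With a pseudocount of 0.1 CPM, 32-cell less 8-cell was 3.72 for Meg3 and 5.01 for Rian in control and 3.22 and 1.71 in mimic cells, Rian between the 8-cell groups was 1.88, and ICM-like less TE-like Meg3 in mimic cells was 3.56. In cells with 1000000 or more counts, Rian was 1.6 between the 8-cell groups and 4.29 between the control stages. With 8-cell cells that had Xist above Y-linked transcripts, 32-cell less 8-cell was 2.92 for Meg3 in control, and 2.31 for Meg3 and 1.06 for Rian in mimic cells. With those of the other type Meg3 and Rian were at 4.97 and 4.13 (control) and at 3.55 and 2.07 (mimic). In mimic cells ICM-like less TE-like Meg3 was 2.88 with clusters of all genes and 2.38 with classes by marker score.

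Leaving out a run of title numbers, or the cell with the most counts, gave for Meg3 -1.02 to 1.33 between the 8-cell groups, -2.18 to -0.42 between the 32-cell groups, 2.74 to 4.97 between the control stages, 1.45 to 3.34 between the mimic stages, 1.92 to 3.24 between the control classes and 1.45 to 4.31 between the mimic classes. For Rian the ranges were 0.59 to 1.66, -2.14 to -0.86, 3.39 to 4.38 and 0.58 to 1.87 in the first 4 of these comparisons. The shares of genes past a log2 change of 1 were computed with filters of 20 CPM and of any count as well. Between the 8-cell groups they were 13.0% (857 of 6570) and 22.9% (3885 of 16974), in place of 21.8% (2115 genes). Between the 32-cell groups they were 12.2% (894 of 7307) and 19.1% (3351 of 17531), in place of 18.9% (1898 genes). The cause of these differences was not tested. No paired analysis was possible because the result comes from no test and title numbers do not mark replicates. Depth limits what can be said of Dlk1, Rtl1 and Mirg, whose counts of 0 allow 0.0527 to 0.231 CPM per group or class, and the labels do not say which embryo a cell came from.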

Other observations

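Regulators of imprints were described from the list of 19 genes, of which 18 were at 5 CPM or more. The levels are pooled CPM, the changes are differences of log2(CPM + 1), and none was tested. Between mimic and control cells of the 32-cell stage 0 of 18 were higher and 5 lower by 1 or more on the log2 scale, with a median of -0.41 over the 18. Of all 10050 genes at that level 18.9% passed this size, 742 of them lower, and the median was 0.04. The 5 were Zfp57, the zinc finger protein that keeps methylation at imprinted control regions (65.2 against 154.3 CPM, log2 change -1.23), Setdb1, a histone methyltransferase recruited by such proteins (40.2 against 83.8 CPM, -1.04), Uhrf1 (83.5 against 262.9 CPM, -1.64) and Dnmt1 (35.6 against 72.3 CPM, -1), which maintain DNA methylation, and Tet3, a DNA demethylase (5.92 against 21.3 CPM, -1.69). Without the control cell with the most counts of the gene Setdb1 and Dnmt1 were both at -0.92, which leaves 3. At the 8-cell stage Zfp57 was also lower in mimic cells (27.2 against 63.3 CPM, -1.19), while Setdb1 was higher (113.7 against 43.6 CPM, 1.36). These were 2 of 18, against 21.8% of all genes at that level.

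Between the classes of control cells Zfp57 was, like Meg3 and Rian, the higher in ICM-like cells, at 234.0 CPM in ICM-like and 47.7 CPM in TE-like cells (log2 change 2.27). In mimic cells it was at 51.7 CPM in ICM-like and 69.5 CPM in TE-like cells, so the order of the classes was the other way. Tet1 was also higher in ICM-like control cells (486.2 against 166.6 CPM, 1.54) and Dnmt3l lower (9.03 against 53.9 CPM, -2.45), so that 3 of 18 passed, against 29.9% of all genes at that level. Zfp445, which acts beside Zfp57 at imprints, was lower in ICM-like than in TE-like mimic cells (63.5 against 160.7 CPM, -1.33), as were Dnmt3b (-1.16), a DNA methyltransferase, and Tet3 (-1.04), and Uhrf1 and Ctcf were higher (log2 changes 1.88 and 1.15), which makes 5 of 18 against 26.8% of all genes. Leaving out the cell with the most counts put Ctcf at 0.85 and Tet3 at -0.64, below that size. From 8-cell to 32-cell control, Uhrf1, Tet2, Jarid2 and Zfp57 were higher by 4.24, 3.64, 1.64 and 1.27, and Trim28, the partner of both zinc finger proteins, Dppa3, which protects methylation in the zygote, and Ezh2 were lower, by -1.22, -1.32 and -1.26. These were 7 of 18, against 53.6% of all genes at that level. Between the mimic stages 9 of 18 passed, against 52.0% of all genes, with Uhrf1, Tet2, Jarid2 and Zfp57 higher (2.06, 2.71, 2.02 and 1.23) and Trim28, Setdb1, Tet3, Ezh2 and Suz12 lower (-1.94, -1.48, -1.54, -1.04 and -1.06). Of these Tet3 (-0.69), Ezh2 (-0.97) and Suz12 (-0.94) did not pass without 1 8-cell cell.

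Within the classes, mimic ICM-like cells were lower than control ICM-like cells in Zfp57, Setdb1 and Tet3 (log2 changes -2.16, -1 and -2.47) and higher in Dnmt3l (1.11), which makes 4 of 18 against 30.7% of all genes at that level. Without 1 mimic cell Dnmt3l turned to -0.23, without 1 control cell Setdb1 was at -0.83, and Tet3 had counts in 1 of the 10 mimic cells. In TE-like cells Dnmt1, Uhrf1, Tet2 and Tet3 were lower in mimic than in control cells (-1.04, -1.89, -1.19 and -1.58), again 4 of 18, against 27.2% of all genes, and without 1 control cell Dnmt1 was at -0.79 and Tet2 at -0.96.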
